A study of Mus musculus with 24 samples.

Results

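A set of 10 genes of the Notch pathway were followed through mouse intestinal organoids carrying oncogenic alleles: the receptors Notch1, Notch2 and Notch3, the ligands Dll1, Dll4, Jag1 and Jag2, and the target genes Hes1, Nrarp and Heyl. They were chosen by symbol, each symbol matched 1 Ensembl gene in both count tables, and they are 10 of 45706 genes listed. Of the 10, 8 had enough counts to be tested, and Nrarp and Heyl did not.

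The organoids were epithelial cultures from the proximal small intestine (SI) and the colon (COL) of C57BL/6N mice. Every culture, off groups included, carried Villin::CreERT2, a Cre recombinase driven by the Villin promoter of gut epithelium and switched on by 4-hydroxytamoxifen (4-HT). BRAF cultures were heterozygous for an inducible BRAFV600E allele, p53 cultures for an inducible p53R172H allele, and BRAFp53 cultures for both. On groups received 4-HT at 0.5 µM (SI) or 3.5 µM (COL) for 24 h, and off groups received ethanol. RNA was taken on day 8 in SI and day 3 in COL, and COL medium additionally held Wnt3a and CHIR99021, so tissue, dose, time and medium cannot be told apart in any comparison of COL with SI. Each of the 12 groups held 2 libraries from a single donor culture per genotype and tissue. Nothing says that the libraries of a group came from separate animals, so the p-values measure only the spread between libraries, which may be technical.

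Notch signalling passes between touching cells. A ligand of the Delta or Jagged family on one cell binds a receptor on its neighbour, gamma-secretase cuts the receptor, and the released intracellular part joins the DNA-binding protein RBPJ in the nucleus to switch on genes such as Hes1. In the intestinal crypt the pathway maintains stem cells and directs daughters to the absorptive lineage, because Hes1 represses Atoh1, the factor that starts goblet, Paneth and enteroendocrine fates. In the crypt Dll1 and Dll4 are the ligands best known for this role, and they are made mainly by secretory cells.

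Levels below are CPM, the counts of a gene per 1000000 counts of its library, scaled over all 24 libraries by the trimmed mean of M values (TMM), and differences between groups were tested with edgeR. Libraries held 51174821 to 78175143 counts in COL and 44350747 to 68214835 in SI. Trp53, whose silent inducible allele becomes readable after recombination, rose in 3 of the 4 arms bearing p53R172H, by 0.94 ± 0.13 (log2, SE) in both COL p53 and COL BRAFp53 and by 0.52 ± 0.13 in SI BRAFp53. In SI p53 its change was 0.76 ± 0.13, with an adjusted p of 0.194. In the BRAF arms Trp53 fell, with changes of -0.44 ± 0.13 in COL BRAF (adjusted p = 0.0332) and -0.62 ± 0.13 in SI BRAF (adjusted p = 0.00351). Braf changed by 0.38 to 0.50 in the 4 arms bearing BRAFV600E, with none called. All 8 epithelial markers were detected in every library, at a summed 8849 to 28610 CPM, and the endothelial list, 10 genes of a cell type that uses Notch heavily, summed to 2.39 to 5.65 CPM. The fibroblast list reached 147 CPM in COL, nearly all of it Fn1, while Thy1 was at 0 in every library.

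Some libraries stood apart. SI BRAF on replicate 1 held 17.1 CPM of Xist, against 0.234 to 0.471 CPM in the other 3 SI BRAF libraries and 115 to 166 CPM in the 8 libraries of SI p53 and SI BRAFp53. Its Y-linked Ddx3y, at 36.1 CPM, lay within the 32.8 to 40.3 CPM of the other SI BRAF libraries, while the 8 SI p53 and SI BRAFp53 libraries held at most 0.065 CPM. COL libraries held at most 0.0395 CPM of Xist, so all 4 SI BRAF libraries lay above the COL level and replicate 1 by far the most. Changes in SI BRAF are also given without that library. The methods name 3 donor mice, listed by genotype. COL libraries held 45.8 to 64.8 CPM of Ddx3y, so the COL and SI cultures of p53, and those of BRAFp53, did not share a donor. The COL BRAF culture held 32.1 to 49.4 CPM of Gata4, a transcription factor of the small intestine, against 0.293 to 2.67 CPM in the other COL libraries and 80.1 to 119 CPM in SI. These genes were singled out after their values were seen.

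In the off state the target Hes1 was the most abundant member per length, and the largest differences between the tissues were those of Dll4, Notch3 and Dll1. Per kilobase of exon (RPKM), Hes1 ran from 9.17 to 17.8 in the 6 COL off libraries and from 14.7 to 19.3 in the 6 SI off libraries. Jag1, a Jagged ligand, lay at 4.65 to 7.05 RPKM in COL and 4.33 to 6.09 in SI. Dll4 lay at 5.41 to 7.81 RPKM in COL and 1.01 to 2.58 in SI, whereas Dll1 lay at 0.695 to 1.68 in COL and 3.44 to 4.77 in SI. The ranges of both Delta ligands did not overlap between tissues, and they ran in opposite directions. The share of all genes with separate ranges was not counted. Notch1 and Notch2 sat together between 1.05 and 2.48 RPKM in both tissues, Jag2 between 0.481 and 1.52, and Notch3 at or below 0.231.

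**Figure D1:**
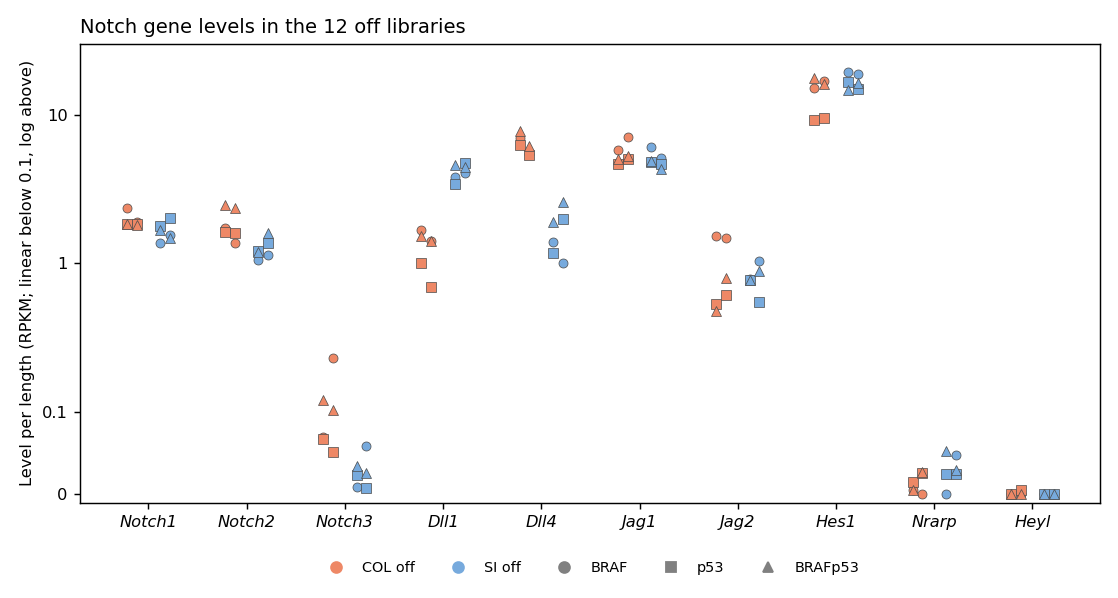
Level per length (RPKM, linear below 0.1 and logarithmic above) of the 10 Notch genes in the 12 off libraries; each point is a library, colour gives the tissue and shape the culture. Dll1 is higher in every SI library, at 3.44 or more, and Dll4 in every COL library, at 5.41 or more.

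The off cultures were compared between tissues with the 2 libraries of each culture summed, giving 3 cultures against 3. Of all genes tested, 29.6% were called at an adjusted p under 0.05, and of the 8 tested members 3 were called. Without the p53 or the BRAFp53 cultures, 1862 and 627 genes were called in place of 5270, and with genotype as a block 3475 were (19.5%), with the same number of members. Dll1 was lower in COL by a log2 difference of -1.68 ± 0.25 (adjusted p = 0.00459) and Dll4 was higher by 1.96 ± 0.25 (adjusted p = 0.00317). Notch3 was higher in COL by 1.95 ± 0.52 (adjusted p = 0.0306), on counts of 31 to 120 per COL off library and 3 to 27 per SI off library. Leaving out the BRAF cultures, of which the COL one held Gata4, gave -1.88 ± 0.31 for Dll1 and 1.77 ± 0.25 for Dll4, and both stayed called. Notch3 lost its call without the cultures of any 1 genotype (adjusted p = 0.0726 to 0.187), and Dll1 lost it without the BRAFp53 cultures (adjusted p = 0.0694). Notch2 differed by 0.59 ± 0.21, Notch1 by 0.26 ± 0.15, Jag1 by 0.17 ± 0.16, Jag2 by 0.19 ± 0.40 and Hes1 by -0.23 ± 0.23, none of them called. The COL cultures and SI BRAF carried Y-linked transcripts and the other SI cultures carried Xist, and the part of this in the tissue difference was not tested.

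Nrarp, a feedback inhibitor of Notch, and Heyl, a repressor of the HES and HEY family, are widely used readouts of the pathway but were close to absent here. Nrarp had 0 to 8 counts in every library. Its exons share 2051 of 2582 bases with Gm38287 on the opposite strand, which was listed at 0 counts throughout. How reads in the shared part were counted is not given in the sources used here, so the level of Nrarp is uncertain. Heyl had 17 counts in COL p53 on replicate 1, 2 counts in COL p53 off replicate 2 and 0 counts in the other 22 libraries. A count of 0 allows up to 3 counts, which is 0.0368 to 0.0878 CPM depending on the library.

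Upstream sequence is shown for 2 members: Notch1, the receptor with calls in most arms, and Dll4, a ligand that fell in COL BRAF and rose in SI BRAF. Both windows are the 250 bases before the RefSeq start (GRCm38.p6), written 5′ to 3′ on the strand of the gene. Capitals mark matches, on either strand, to 2 patterns in which N is any base. These are TGNGAA, a loose form of the RBPJ core, and the N box CACNAG, a site class bound by HES repressors.
Notch1, chr2:26503823-26504072, minus strand: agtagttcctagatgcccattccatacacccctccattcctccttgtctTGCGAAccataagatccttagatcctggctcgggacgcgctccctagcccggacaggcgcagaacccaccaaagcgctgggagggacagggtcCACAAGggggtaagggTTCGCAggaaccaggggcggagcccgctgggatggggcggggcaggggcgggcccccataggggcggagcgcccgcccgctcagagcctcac
Dll4, chr2:119325534-119325783, plus strand: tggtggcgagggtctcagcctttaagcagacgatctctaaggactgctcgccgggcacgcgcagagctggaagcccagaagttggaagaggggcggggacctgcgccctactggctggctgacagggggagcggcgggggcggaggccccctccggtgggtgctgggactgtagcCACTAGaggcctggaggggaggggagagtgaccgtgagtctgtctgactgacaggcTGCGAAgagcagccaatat
The Notch1 window held TGNGAA at 201 and 92 bases before the start and an N box at 108. The Dll4 window held TGNGAA at 19 bases and an N box at 75. Each TGNGAA match in these windows read TGCGAA, or TTCGCA where it lay on the other strand. Such short motifs are common: 44.6% of all 32851 RefSeq windows of this length hold TGNGAA and 36.7% an N box. The longer GTGGGAA is in 5.42%, and no member window held it. RefSeq windows were matched for 8 members, and Hes1 and Heyl had no entry. Of the members not shown, Jag1 held TGNGAA without an N box. Notch2, Notch3 and Nrarp held an N box without TGNGAA, and Dll1 and Jag2 held neither. Only 2 bases of the Notch1 window fall in an annotated exon, and 31 of the Dll4 window fall in exons of the antisense gene Gm14207. These matches are letters in a window and were not tested as binding sites.

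With BRAFV600E on, Notch1, both Delta ligands and Hes1 fell in COL and Jag2 rose, while in SI BRAF both main receptors, both Jagged ligands and Hes1 fell and Dll4 rose. In COL BRAF, 5 of the 8 tested members were called, 1 higher and 4 lower, where 19.9% of all 18972 genes tested were called. In COL BRAFp53, 6 of 8 were called, 2 higher and 4 lower, against 17.7% of all genes. In SI BRAF, 6 of 8 were called, 1 higher and 5 lower, against 31.7% of all 16856 genes. In SI BRAFp53, 2 of 8 were called, 1 in each direction, against 11.5%. The median log2 change of the tested members was -0.24, -0.21, -1.09 and -0.25 in these 4 arms, beside -0.01, -0.04, -0.06 and -0.03 over all genes. Leaving out SI BRAF on replicate 1, 5 of 8 members were called in SI BRAF, 1 higher and 4 lower, with a median of -0.76, beside 29.7% of all genes and their median of -0.06.

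The p53R172H allele alone gave no call on any member in either tissue. edgeR called 0.142% of all genes in COL p53 and 0% in SI p53, where 873 genes had an unadjusted p under 0.05, DESeq2 called 65 genes and limma-voom 1. No member had an unadjusted p under 0.05 in these arms, and neither DESeq2 nor limma-voom called one. In COL p53 DESeq2 called 324 genes and limma-voom 37, against 27 by edgeR. Notch1 came nearest, with a log2 change of -0.37 ± 0.18 in COL p53 (adjusted p = 0.619).

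**Figure D2:**
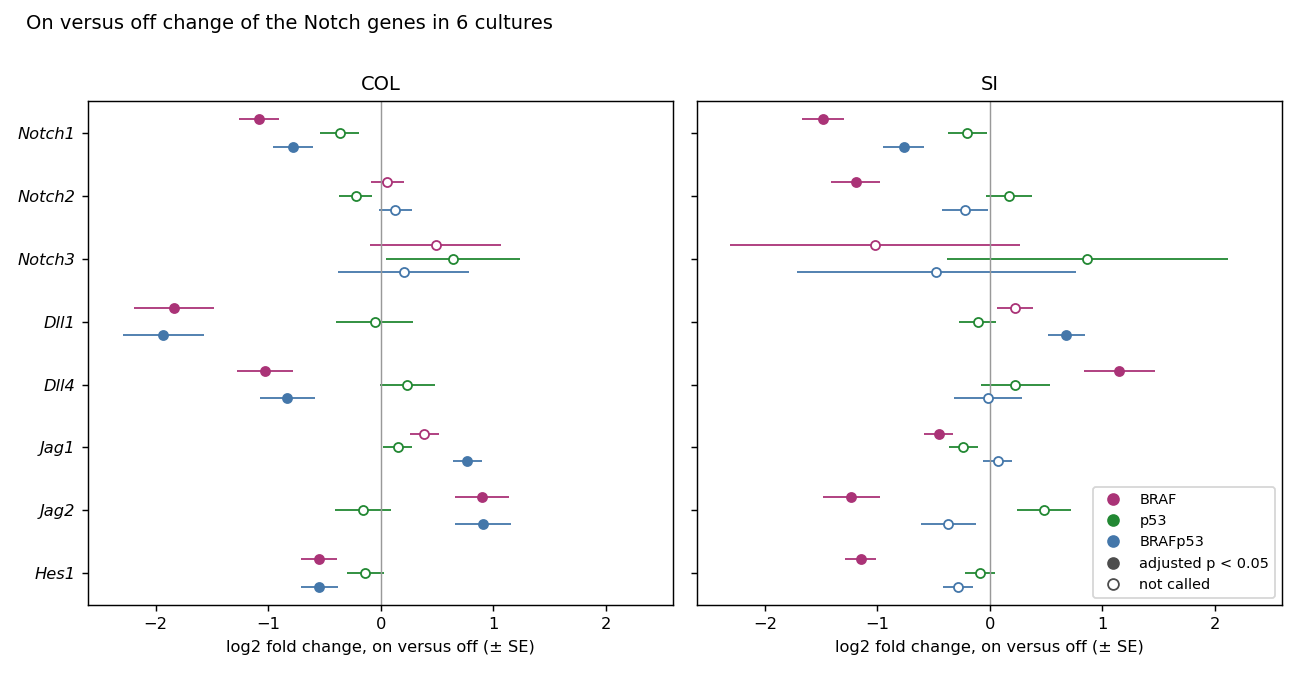
Log2 fold change from off to on (± SE, edgeR) of the 8 tested Notch genes in COL and SI cultures; filled points have an adjusted p under 0.05. Notch1 is filled in the 4 cultures bearing BRAFV600E, and no point of the p53 cultures is filled.

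Notch1 (chr2:26457903-26516663) was the member called in each of the 4 arms bearing BRAFV600E, always lower. In COL BRAF it stood at 33.6 and 27.1 CPM off and at 13.1 and 15.7 CPM on. The on libraries lay below both off libraries, a log2 change of -1.08 ± 0.18 (adjusted p = 0.00147). In COL BRAFp53 the off libraries held 26.3 and 25.6 CPM and the on libraries 13.1 and 17.2 CPM, a change of -0.78 ± 0.18 (adjusted p = 0.0110).
In SI BRAF the off libraries held 19.4 and 22.2 CPM and the on libraries 8.93 and 6.38 CPM, the lowest Notch1 levels of the series. The change was -1.48 ± 0.18 (adjusted p = 5.36e-05), and without SI BRAF on replicate 1 it was -1.75 ± 0.21 (adjusted p = 3.07e-05). In SI BRAFp53 the receptor went from 23.7 and 21.1 CPM to 14.3 and 12.8 CPM, a change of -0.77 ± 0.18 (adjusted p = 0.0134). On and off libraries did not overlap in any of these 4 arms. With 2 libraries on each side this is a weak mark, and the share of all genes without overlap was not counted. The COL BRAFp53 call was lost without COL BRAFp53 on replicate 1, and the SI BRAFp53 call without SI BRAFp53 on replicate 2 or off replicate 1.

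Notch2, which acts beside Notch1 in the crypt, was called in SI BRAF alone. There it lay at 11.3 and 12.3 CPM off and 6.39 and 4.21 CPM on, a change of -1.19 ± 0.22 (adjusted p = 0.00101), or -1.53 ± 0.24 (adjusted p = 0.000299) without on replicate 1. In SI BRAFp53 it held 12.9 and 17.4 CPM off and 12.4 and 14.2 CPM on, and the groups overlapped (log2 change -0.22 ± 0.21). In COL its change was 0.06 ± 0.15 with BRAF and 0.13 ± 0.14 with BRAFp53. COL BRAFp53 carried the highest Notch2 of the series, 25.5 to 29.0 CPM over its 4 libraries.

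Notch3, better known from vascular smooth muscle, was scarce. It had 31 to 120 counts per COL library and 0 to 27 per SI library, and its 6 on versus off changes ran from -1.02 ± 1.29 to 0.87 ± 1.25 with none called. The lowest of these was SI BRAF, where on replicate 1 had 0 counts, and without that library the change there was 0.05 ± 1.26. Pericyte and smooth muscle markers summed to 2.83 to 11.8 CPM over the 24 libraries.

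**Figure D3:**
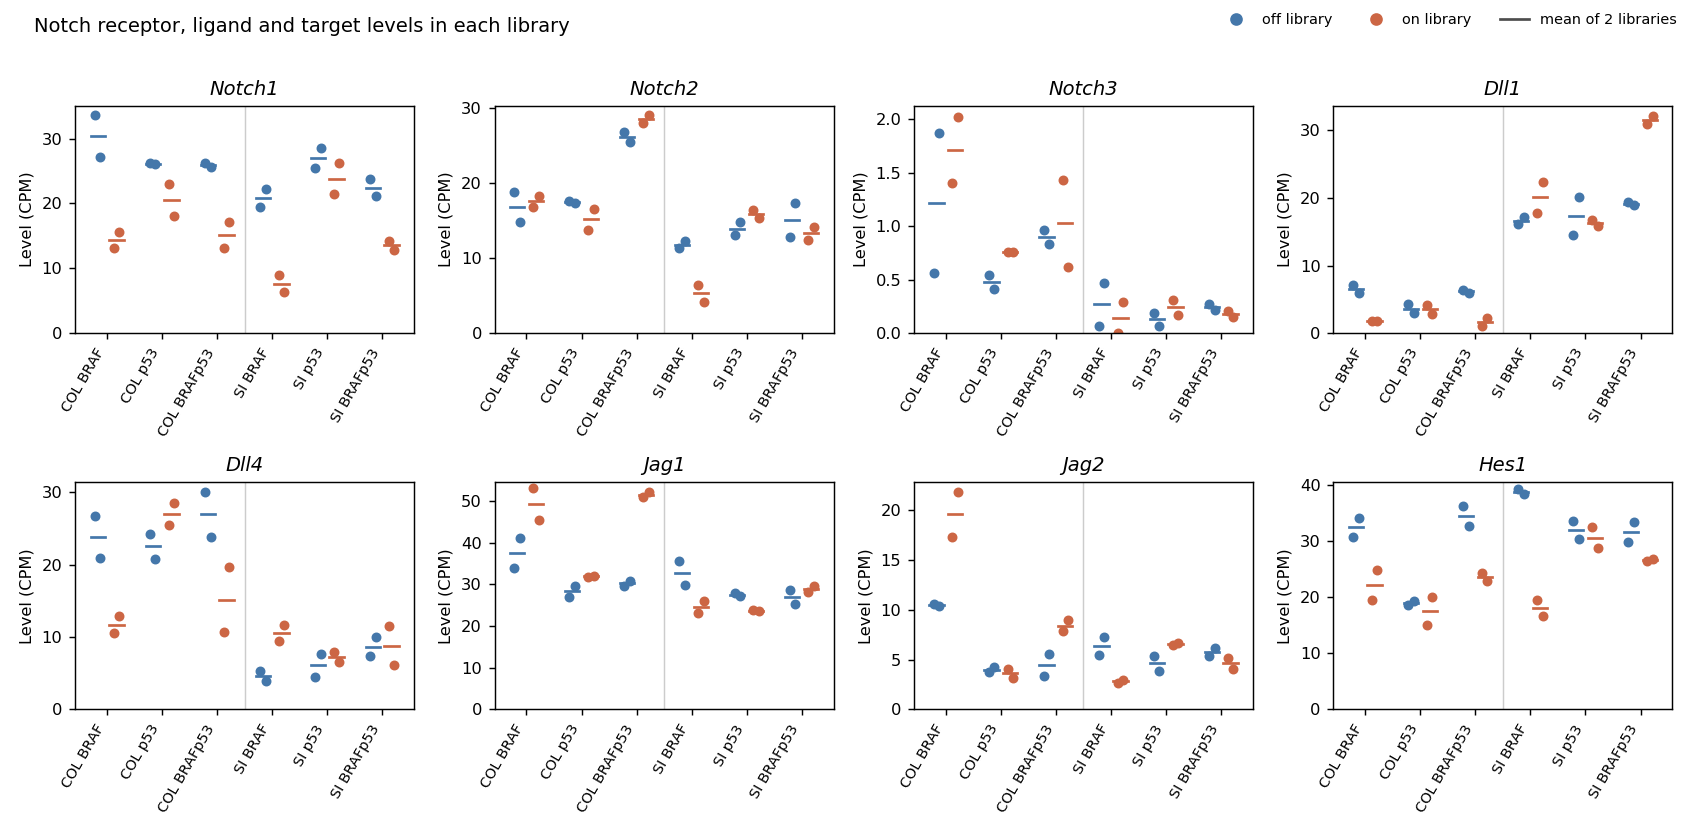
Level (CPM) of the 8 tested Notch genes in each library, with off libraries in blue, on libraries in orange and the mean of 2 libraries as a line. Dll1 falls in COL BRAF and COL BRAFp53 and stands higher in the SI BRAFp53 on libraries, at 30.9 and 32.0 CPM.

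The Delta ligands fell with BRAFV600E in COL and rose, one in each arm, in SI. Dll1 (chr17:15367354-15376872) in COL BRAF was at 7.08 and 5.97 CPM off and 1.87 and 1.79 CPM on, a change of -1.84 ± 0.36 (adjusted p = 0.00385). In COL BRAFp53 it was at 6.43 and 5.97 CPM off and 1.02 and 2.25 CPM on, a change of -1.93 ± 0.36 (adjusted p = 0.00345). These were the largest falls of any member in COL, and both were called under every alternative run. Within a tissue, 12 of the 18 alternatives left out 1 library each, most of them from outside the arm. Tallies of kept calls are therefore a lenient check. In SI BRAFp53 Dll1 instead went from 19.4 and 18.9 CPM to 30.9 and 32.0 CPM, a rise of 0.68 ± 0.16 (adjusted p = 0.0148) that lost its call without on replicate 2 or either off library. In SI BRAF it stood at 16.1 and 17.2 CPM off and 17.8 and 22.3 CPM on, with all on libraries above the off ones and a change of 0.22 ± 0.16 (adjusted p = 0.332), or 0.38 ± 0.19 (adjusted p = 0.152) without on replicate 1. Dll1 shares 867 of its 4219 exon bases with A930024N18Rik on the other strand, which had at most 15 counts per COL library and 87 per SI library.

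Dll4 (chr2:119325784-119335962) in COL BRAF fell from 26.7 and 20.9 CPM to 10.6 and 12.8 CPM, a change of -1.03 ± 0.25 (adjusted p = 0.0125) that lost its call without on or off replicate 1. In COL BRAFp53 it went from 30.1 and 23.8 CPM to 10.7 and 19.7 CPM, a change of -0.83 ± 0.25 (adjusted p = 0.0363). The 2 on libraries of that arm lay apart, and 12 of 18 alternatives kept the call.
In SI BRAF it rose, from 5.32 and 3.89 CPM to 9.39 and 11.7 CPM. The change was 1.15 ± 0.31 (adjusted p = 0.0131), and 1.31 ± 0.36 (adjusted p = 0.0142) without on replicate 1, and it lost its call without on replicate 2 or off replicate 2. In SI BRAFp53 the groups overlapped, at 7.37 and 9.95 CPM off and 11.5 and 6.19 CPM on (log2 change -0.02 ± 0.30). Its antisense neighbour Gm14207 shares 214 of 3852 exon bases with Dll4 and had 123 to 757 counts per library, and whether the counting used strand is not given in the sources used here.

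The Jagged ligands rose in COL, Jag2 in both BRAFV600E arms and Jag1 in BRAFp53, and both fell in SI BRAF. Jag2 (chr12:112907819-112929776) in COL BRAF rose from 10.6 and 10.4 CPM to 17.3 and 21.9 CPM, a change of 0.90 ± 0.24 (adjusted p = 0.0216). In COL BRAFp53 it rose from 3.35 and 5.57 CPM to 7.83 and 8.95 CPM, a change of 0.91 ± 0.25 (adjusted p = 0.0255). Each of these calls was kept in 15 of 18 alternatives. In SI BRAF Jag2 fell from 5.49 and 7.26 CPM to 2.67 and 2.96 CPM, a change of -1.23 ± 0.25 (adjusted p = 0.00226), and -1.15 ± 0.32 (adjusted p = 0.0135) without on replicate 1. In SI BRAFp53 it stood at 5.37 and 6.22 CPM off and 5.21 and 4.03 CPM on, a change of -0.37 ± 0.24 that was not called.

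Jag1 (chr2:137081456-137116644) had the highest level per length of the 4 ligands in the COL BRAF and COL BRAFp53 on libraries, at 7.81 to 9.09 RPKM. In COL BRAFp53 it rose from 29.6 and 30.9 CPM to 50.9 and 52.1 CPM, a change of 0.77 ± 0.13 (adjusted p = 0.00189) kept under every alternative. In COL BRAF it went from 34.0 and 41.1 CPM to 52.99 and 45.5 CPM, and the change of 0.39 ± 0.13 missed the threshold by edgeR (adjusted p = 0.0529). DESeq2 (adjusted p = 0.0205) and limma-voom (adjusted p = 0.0412) called the Jag1 change, as did 3 of the other alternatives. In SI BRAF it fell from 35.5 and 29.8 CPM to 23.1 and 26.0 CPM, by -0.46 ± 0.13 (adjusted p = 0.0164). Without SI BRAF on replicate 1 that change was -0.37 ± 0.16 and was no longer called (adjusted p = 0.108). In SI BRAFp53 the change was 0.07 ± 0.13, with 28.7 and 25.2 CPM off and 28.3 and 29.7 CPM on.

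Hes1 (chr16:30064384-30067796), the repressor directly induced by Notch, fell in 3 of the 4 arms bearing BRAFV600E. In SI BRAF it went from 39.4 and 38.4 CPM to 19.5 and 16.6 CPM, a change of -1.15 ± 0.14 (adjusted p = 3.75e-05), or -1.27 ± 0.16 (adjusted p = 6.4e-05) without on replicate 1. In COL BRAF it went from 30.7 and 34.2 CPM to 19.6 and 25.0 CPM, a change of -0.55 ± 0.16 (adjusted p = 0.0342). In COL BRAFp53 it went from 36.3 and 32.8 CPM to 24.3 and 22.9 CPM, a change of -0.55 ± 0.16 (adjusted p = 0.0377). On and off libraries did not overlap in any of these arms, and the share of all genes without overlap was not counted. The COL calls rest on few libraries: 15 of 18 alternatives kept the COL BRAF call and 10 of 18 the COL BRAFp53 call. In SI BRAFp53 Hes1 stood at 29.9 and 33.4 CPM off and 26.5 and 26.9 CPM on, a change of -0.28 ± 0.13 (adjusted p = 0.218).

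The response to BRAFV600E was next compared between tissues, as the COL change less the SI change in a fit of all 24 libraries. For the BRAF cultures 5 of 8 members differed, beside 10.7% of all 19673 genes tested. Dll1 responded lower in COL by -2.10 ± 0.38 (adjusted p = 0.00130) and Dll4 by -2.22 ± 0.45 (adjusted p = 0.00296). The other 3 responded higher in COL: Jag2 by 2.09 ± 0.35 (adjusted p = 0.000715), Notch2 by 1.21 ± 0.26 (adjusted p = 0.00527) and Jag1 by 0.80 ± 0.18 (adjusted p = 0.00551). All 5 stayed called under each of the 30 alternatives, and without SI BRAF on replicate 1 their values were -2.25, -2.37, 2.02, 1.55 and 0.72. Of these 30 alternatives, 24 left out 1 library each, most of them from outside the BRAF groups. Notch1 and Hes1 fell in both tissues, and their responses differed by 0.36 ± 0.26 (adjusted p = 0.460) and 0.56 ± 0.21 (adjusted p = 0.102). For BRAFp53, 2 members differed, beside 3.52% of all genes: Dll1 by -2.65 ± 0.38 (adjusted p = 0.000657) and Jag1 by 0.66 ± 0.18 (adjusted p = 0.0429). The Dll1 difference was called in all 30 alternatives and that of Jag1 in 16. Jag2 differed by 1.24 ± 0.35, with an adjusted p of 0.0568 by edgeR and 0.00941 by DESeq2, and 6 of 30 alternatives called it.

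**Figure D4:**
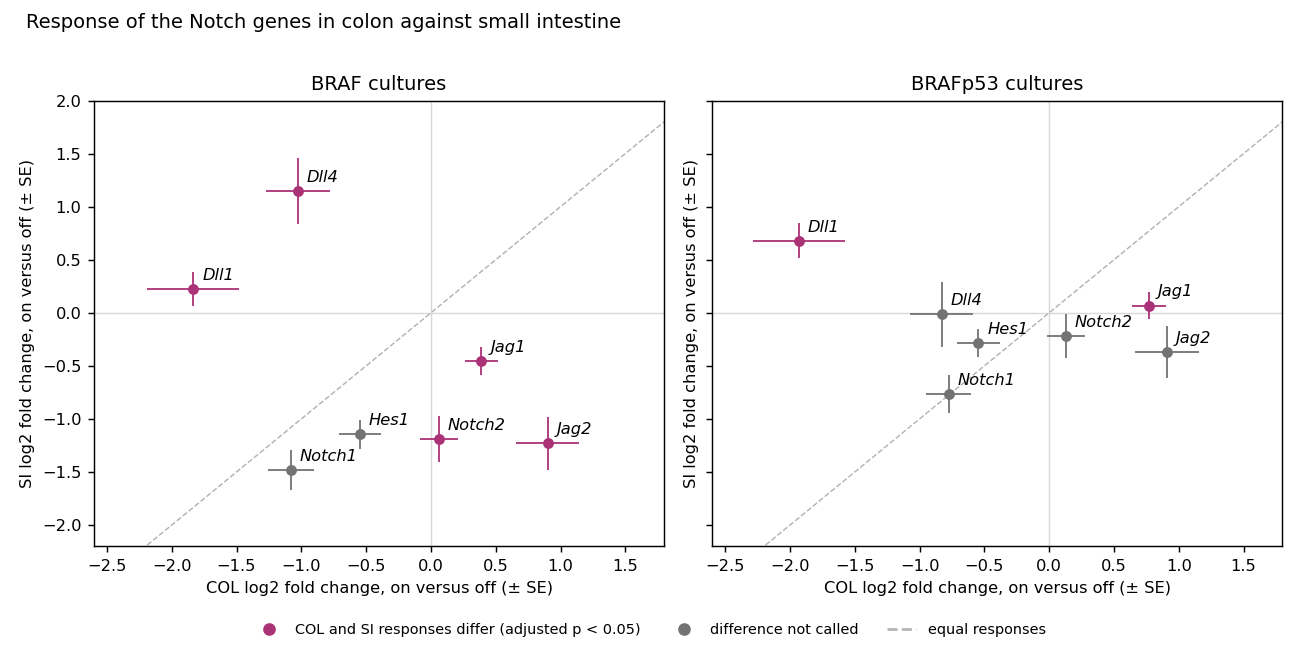
Log2 fold change from off to on (± SE) in COL against SI for 7 Notch genes in BRAF and BRAFp53 cultures; Notch3 is left out for its wide errors, and points off the dashed line responded unequally. With BRAF, Dll1 and Dll4 lie in the upper left, Jag1 and Jag2 in the lower right, and Notch1 and Hes1 nearest to the line.

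Whether p53R172H altered the response to BRAFV600E was tested as the BRAFp53 change less the BRAF change in each tissue. In COL edgeR called no member, beside 0.907% of all genes, none had an unadjusted p under 0.05, and DESeq2 and limma-voom called none. The member differences in COL ran from -0.28 ± 0.82 for Notch3 to 0.38 ± 0.18 for Jag1. In SI 1 member was called, beside 8.2% of all genes: Hes1 fell less in BRAFp53, by 0.86 ± 0.19 (adjusted p = 0.0146). That call was lost without SI BRAF off replicate 2, SI BRAFp53 on replicate 2 or SI BRAFp53 off replicate 1. Without SI BRAF on replicate 1, the library that stood apart, 3 members were called, beside 11.8% of all genes in that fit: Hes1 by 0.998 ± 0.20 (adjusted p = 0.00689), Notch2 by 1.32 ± 0.29 (adjusted p = 0.0109) and Notch1 by 0.99 ± 0.25 (adjusted p = 0.0209). With all libraries the last 2 were 0.97 ± 0.30 and 0.71 ± 0.25, with adjusted p of 0.0664 and 0.110. In that fit 6 of the 8 members had an unadjusted p under 0.05, and DESeq2 called Hes1 and Notch2. The other differences were -1.17 ± 0.44 for Dll4, 0.52 ± 0.18 for Jag1, 0.86 ± 0.35 for Jag2, 0.46 ± 0.23 for Dll1 and 0.55 ± 1.78 for Notch3, none called. The SI BRAF donor culture carried Y-linked transcripts and the SI BRAFp53 culture Xist, so genotype and donor cannot be told apart here.

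Other genes of the pathway were followed as a list of 56, of which 50 were tested within each tissue. Of these, 9 were called in COL BRAF (5 higher, 4 lower), 6 in COL BRAFp53 (4 and 2), 12 in SI BRAF (7 and 5) and 4 in SI BRAFp53 (all higher). These counts are no larger a share than the 19.9%, 17.7%, 31.7% and 11.5% of all genes. In SI BRAFp53 DESeq2 and limma-voom each called 7. None was called by edgeR in either p53 arm, where 4 (COL) and 2 (SI) had an unadjusted p under 0.05. DESeq2 called 1 in COL p53 and 0 in SI p53, and limma-voom 0 in both. Lfng, a glycosyltransferase that tunes which ligands a receptor answers, fell in COL BRAF (-1.23 ± 0.21), COL BRAFp53 (-0.83 ± 0.21) and SI BRAF (-1.71 ± 0.34). Dtx4, a Deltex ubiquitin ligase, fell in the same arms, by -0.67 ± 0.18, -1.19 ± 0.18 and -1.34 ± 0.14. Rbpj, the DNA-binding partner of the receptor, fell in COL BRAF (-0.59 ± 0.18) and SI BRAF (-0.55 ± 0.18). Rises were seen for Ncstn (0.70 ± 0.14) in SI BRAF and Psenen (0.49 ± 0.10) in COL BRAFp53, both subunits of gamma-secretase, and for Neurl1b, a ubiquitin ligase of ligands, in COL BRAFp53 (0.98 ± 0.18) and SI BRAF (0.79 ± 0.11). Without SI BRAF on replicate 1, 13 of the 50 were called in SI BRAF and 7 in SI BRAFp53, beside 29.7% and 12.6% of all genes. The SI BRAF changes were then -1.99 ± 0.44 for Lfng, -1.51 ± 0.16 for Dtx4, -0.76 ± 0.21 for Rbpj, 0.87 ± 0.16 for Ncstn and 0.81 ± 0.14 for Neurl1b, all called. In SI the BRAFp53 and BRAF responses differed for 9 of the 50, beside 8.2% of all genes, among them Lfng (1.98 ± 0.48) and Dtx4 (0.92 ± 0.19). Without that library 8 differed, beside 11.8%. In COL edgeR called none of the 50, while 9 had an unadjusted p under 0.05, DESeq2 called 2 and limma-voom 0. Between tissues, 3 of 52 differed in their BRAF response, beside 10.7% of all genes, and 1 in their BRAFp53 response, beside 3.52%. DESeq2 called 8 and 9 for these last comparisons, and limma-voom 3 and 1. Between off cultures 15 of 49 tested differed, a share close to the 29.6% of all genes, with 12 higher in COL, including Maml2 (5.40 ± 0.46), a coactivator of the Notch complex, and Rbpj (0.84 ± 0.15).

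The secretory factors that Hes1 restrains did not move as one. Atoh1 was higher in COL than in SI off cultures by 2.91 ± 0.49 (adjusted p = 0.00662), at 12.2 to 25.7 CPM against 1.39 to 5.24 CPM. In COL BRAF it fell from 13.9 and 12.2 CPM to 4.96 and 5.74 CPM, a change of -1.29 ± 0.18 (adjusted p = 0.000487). That is the same direction as Hes1 in that arm. In the other BRAFV600E arms Atoh1 was not called, with changes of -0.37 ± 0.17 in COL BRAFp53, -0.81 ± 0.41 in SI BRAF and 1.31 ± 0.42 in SI BRAFp53. Spdef, a goblet and Paneth cell factor downstream of Atoh1, rose in COL BRAF (0.69 ± 0.18), COL BRAFp53 (1.16 ± 0.18) and SI BRAFp53 (1.72 ± 0.20), where it went from 4.16 and 5.27 CPM to 14.5 and 17.3 CPM. Gfi1 and Neurog3, which act in secretory and endocrine precursors, were called by edgeR in none of the 6 arms. Gfi1 stayed at or below 3.51 CPM, and Neurog3 came nearest in SI BRAFp53, from 4.51 and 7.38 CPM to 11.9 and 10.4 CPM (0.87 ± 0.30, adjusted p = 0.0873). Without SI BRAF on replicate 1, which shares the fit, that Neurog3 change was 0.88 ± 0.24 and was called (adjusted p = 0.0261), while in SI BRAF Atoh1 stayed at -0.81 ± 0.52 and uncalled. Neither p53 arm gave a call on any of the 4, with Spdef at 0.44 ± 0.18 in COL p53 and Atoh1 at 0.58 ± 0.42 in SI p53 as the largest positive changes of each arm. Spdef was also higher in COL off cultures, by 2.23 ± 0.29, and Neurog3 by 1.16 ± 0.32. The BRAFp53 response of Atoh1 was lower in COL than in SI by -1.72 ± 0.46 (adjusted p = 0.0436). In SI the BRAFp53 response exceeded the BRAF response for Atoh1 by 2.12 ± 0.59 (adjusted p = 0.0434) and for Spdef by 1.71 ± 0.28 (adjusted p = 0.00289). Without SI BRAF on replicate 1 the Atoh1 difference was 2.13 ± 0.67 and was not called (adjusted p = 0.0561), while Neurog3 was, at 1.56 ± 0.41 (adjusted p = 0.0244).

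**Figure D5:**
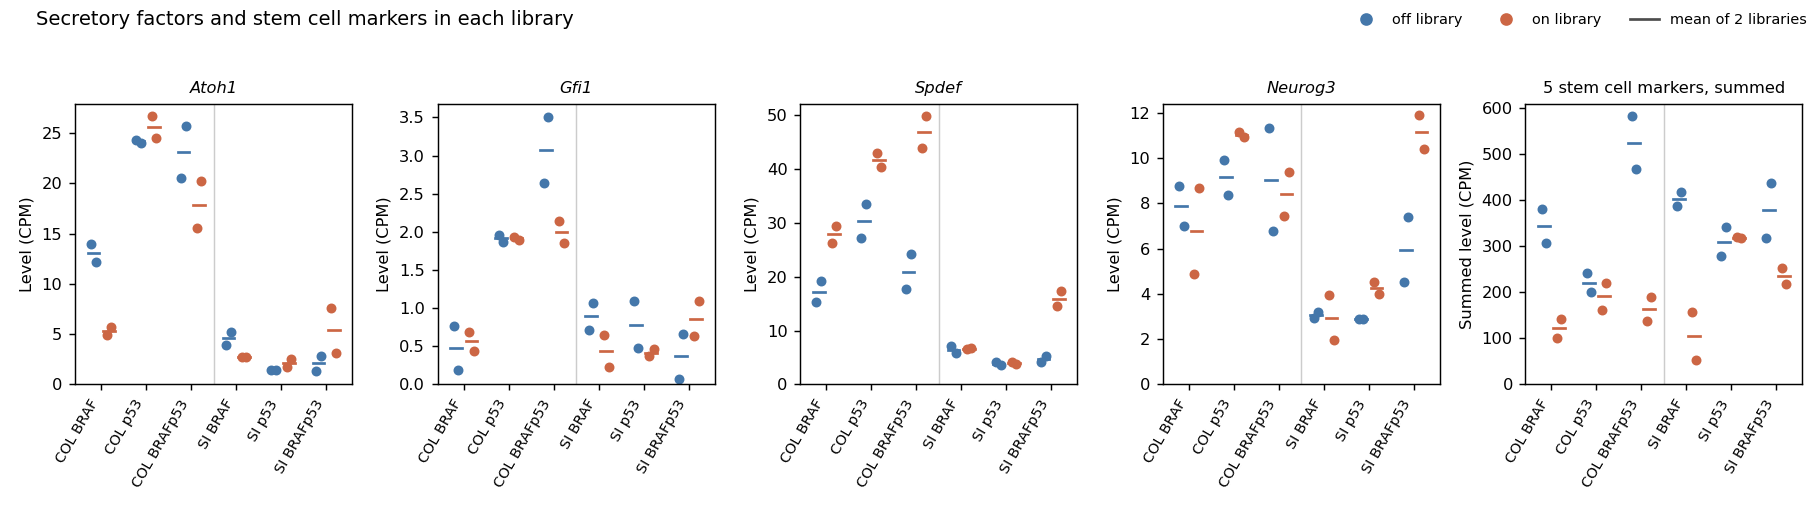
Level (CPM) of Atoh1, Gfi1, Spdef and Neurog3 and the summed level (CPM) of 5 stem cell markers in each library, off in blue and on in orange, with the mean of 2 libraries as a line. Atoh1 and the stem cell sum fall in COL BRAF, and Spdef rises in SI BRAFp53 to 14.5 and 17.3 CPM.

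Markers of epithelial cell types also moved in the arms bearing BRAFV600E. Of all genes, 19.9% were called in COL BRAF, 17.7% in COL BRAFp53, 31.7% in SI BRAF and 11.5% in SI BRAFp53. Several of the smaller counts below lie near these shares. The summed stem cell markers (Lgr5, Ascl2, Olfm4, Smoc2, Axin2) went from 307 to 380 CPM off to 101 to 141 CPM on in COL BRAF, from 466 to 582 CPM to 138 to 190 CPM in COL BRAFp53, and from 387 to 417 CPM to 53.6 to 157 CPM in SI BRAF. Of the 5, 4, 4 and 5 fell in these arms, and 1 in SI BRAFp53, where the sum went from 318 to 436 CPM to 218 to 252 CPM. All 7 goblet cell markers rose in SI BRAFp53, and 5, 5 and 4 of them in COL BRAF, COL BRAFp53 and SI BRAF. Of 6 absorptive markers 2 rose and 2 fell in each of COL BRAF and COL BRAFp53, and 2 rose and 1 fell in SI BRAFp53. In SI BRAF 5 of them rose, and their sum went from 5721 to 7496 CPM to 20389 to 22876 CPM. Of 6 Paneth cell markers 4 fell in SI BRAF and 4 rose in SI BRAFp53. Their sum was 804 to 2641 CPM in COL and 190 to 602 CPM in SI, so the list was not confined to SI. The enteroendocrine markers summed to 162 to 253 CPM off and 378 to 422 CPM on in COL BRAF and to 166 to 199 CPM and 351 to 420 CPM in COL BRAFp53, with 2 of 6 higher in each. The tuft cell markers went from 14.9 to 15.4 CPM to 2.16 to 5.81 CPM in SI BRAF, where 4 of 5 fell, and 2 of 5 fell in COL BRAFp53. In COL p53, where no Notch gene was called, some sums also separated. The enteroendocrine sum was 291 to 361 CPM off and 452 to 478 CPM on, and the Paneth sum 1415 to 1701 and 1921 to 2641 CPM. The tuft sum there was 41.7 to 50.3 and 53.4 to 59.7 CPM. The absorptive sum was lower on, and the stem and goblet sums overlapped. Leaving out SI BRAF on replicate 1, the stem, goblet, Paneth, absorptive and tuft counts in SI BRAF were 5, 4, 4, 5 and 4, as with it, and 3 stem cell markers fell in SI BRAFp53 in place of 1. The 8 immune markers summed to 8.08 to 8.26 CPM off and 20.2 to 29.3 CPM on in SI BRAF, and to 4.06 to 6.68 CPM and 15.5 to 18.0 CPM in SI BRAFp53. Of their 3 tested members, Itgam and Csf1r rose in both arms, while Ptprc, which marks all leukocytes, had at most 5 counts in these 8 libraries. In COL BRAF and COL BRAFp53, 1 of 5 tested immune markers rose in each, with sums of at most 13.4 CPM. In bulk RNA fewer cells of a type and less RNA per cell cannot be told apart, and the part of these shifts in the Notch gene changes was not tested.

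Genes whose level followed a member most closely were ranked over the 24 libraries, after each tissue was centred, among 7614 or 7615 named genes. The highest Pearson r belonged to Notch1, with Pold1 (0.955), Coq8a (0.929) and Hjurp (0.928), and to Hes1, with Ccdc34 (0.939), Dek (0.918) and Nsd2 (0.917). Notch2 was most like Nek2 (0.887), Jag2 like Rpl29 (0.871), Jag1 like Pld2 (0.852), Dll1 like Nlrp6 (0.826), Dll4 like Ccdc90b (0.794) and Notch3 like Map3k3 (0.785). Among the members, Hes1 had an r of 0.630 with Notch2 and 0.613 with Notch1, Dll1 and Dll4 of 0.681, Jag1 and Jag2 of 0.668, and Notch3 and Jag2 of 0.627. Dll4 had an r of -0.685 with Jag1 and -0.624 with Jag2. The 24 points share cultures and treatments, so these values describe this series.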

How the data were processed

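Organoid RNA was sequenced in 24 libraries. Per the labels and the study's methods, the authors trimmed reads with Trimmomatic 0.36, aligned them with STAR 2.5.2b and deposited raw counts per gene for each tissue. The processing notes name mm9 and mm10, and the annotation release and strand setting are not given in the sources used here. Counts were tested within each tissue with edgeR 4.0.16 (R 4.3.3), using filterByExpr, TMM scaling, the quasi-likelihood test and Benjamini-Hochberg adjustment over all genes tested, and called at an adjusted p under 0.05. SE is the log2 fold change divided by the root of F. Responses were compared between tissues in a fit of all libraries, and off cultures on summed libraries. DESeq2 1.42.0, limma 3.58.1 (voom), other filters and scalings, a replicate block, genotype as a block between off cultures, and left-out libraries were alternatives. A library left out from outside the compared groups changed only the shared spread, scaling and filter. The edgeR step was tested on simulated data. RPKM used union exon lengths (GENCODE, GRCm38). Replicates differed beyond sampling noise (chi-square per degree of freedom 22.25 to 101.8). Intervals of depth cover counting error only. Every member is reported, pathway genes are named at most 3 per list and comparison among those called, and likeness is the highest Pearson r among genes of mean CPM 10 or more. The members and lists were chosen with earlier results of these data known.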

Additional observations from a re-analysis of the deposited data

Results flagged for a closer look

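Of the results on the Notch genes, 8 met a test of unequal response between groups. Between tissues, the BRAF response in COL less that in SI was 1.21 for Notch2, -2.10 for Dll1, -2.22 for Dll4, 0.80 for Jag1 and 2.09 for Jag2 on the log2 scale. The same difference for BRAFp53 was -2.65 for Dll1 and 0.66 for Jag1. Within SI, the BRAFp53 response less the BRAF response was 0.86 for Hes1. Tissue cannot be told apart from 4-HT dose, day, medium and donor, and genotype cannot be told apart from donor.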

How the results depend on the processing

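No change of a Notch gene that was called, with or without an alternative, turned its sign. Uncalled changes did so in 50 of 1794 recomputed values, among them Notch3 in SI BRAF (-1.02, and 0.05 without SI BRAF on replicate 1) and in the SI difference (0.55, and -0.51 without it). Of the 1794, 1715 kept their side of the threshold, 59 lost it and 20 gained it. The BRAFp53 response differed between tissues for 1 member with a replicate block, against 2 without it and 3 by DESeq2, RLE scaling or no filter, and the block changed no other count of members by over 1.5 times. Within each culture, the difference between the off libraries was correlated over genes with that between the on libraries. These values were -0.0683 to 0.0903. They gave no sign of pairing by replicate number and cannot exclude it. In SI the BRAFp53 and BRAF responses differed for 3 members with no filter on low counts, 2 with at least 10 counts in every library and 2 by DESeq2, against 1. With single libraries or cultures left out, the members called ran from 2 to 5 in COL BRAF, 2 to 6 in COL BRAFp53, 5 to 6 in SI BRAF, 0 to 2 in SI BRAFp53, 0 to 3 for the SI difference, 1 to 3 for BRAFp53 between tissues and 1 to 4 between off cultures. It stayed at 5 for BRAF between tissues and at 0 in both p53 arms and for the COL difference. Over all genes, DESeq2 called 324 in COL p53 against 27, 1364 for the COL difference against 172, 2108 for the SI difference against 1383 and 1580 for BRAFp53 between tissues against 693, and no filter gave 569, 1312 and 1548 for the first, second and last. In SI p53, where edgeR called 0, DESeq2 called 65 and no filter 155. The COL difference gave 391 with at least 10 counts and 17 with the block, and COL p53 gave 15 with the block. With 1 library left out, the genes called ran from 0 to 358 for the COL difference (172 with all; 0 without COL BRAF off replicate 1) and from 0 to 63 in COL p53 (27 with all; 0 without COL p53 off replicate 1). They fell to as few as 1961 of 3776 in COL BRAF (without on replicate 1) and 1699 of 3360 in COL BRAFp53 (without on replicate 1), 887 of 1941 in SI BRAFp53, 597 of 1383 for the SI difference (and rose to 2128 without SI BRAF on replicate 1), and 1202 of 2108 and 235 of 693 for BRAF and BRAFp53 between tissues. With no filter the median log2 difference of all genes between off cultures was 0.258 against 0.0817.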
